A study of Mus musculus with 4 samples.

Results

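The nuclear-encoded genes of the mitochondrial respiratory chain and ATP synthase were described in germ cells and gonadal somatic cells of fetal mice. Members were taken by symbol, as every gene starting with Nduf, Uqcr, Cox4 to Cox8 or Atp5 together with Sdha, Sdhb, Sdhc and Sdhd, which gave 90 of the 20299 genes listed. By complex these were 36 subunit genes of complex I, 4 complex I assembly factors, 4 genes of complex II, 8 of complex III, 20 of complex IV and 15 of complex V. The remaining 3 matched by symbol only: Cox4nb, listed by RefSeq as Emc8, a subunit of an endoplasmic reticulum complex, and Atp5s and Atp5sl, listed as Dmac2l and Dmac2. Ndufa4 and Ndufa4l2 were counted in complex IV, where the Ndufa4 protein resides despite its symbol. No gene encoded by the mitochondrial genome was analysed here.

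RNA had been sequenced, with strand information, from 4 libraries at 15.5 days post coitum (dpc): male germ cells, female germ cells, male gonadal somatic cells and female gonadal somatic cells, with 1 library each. All fetuses came from CF1 females crossed to TgOG2 males, so that a transgene with the Oct4 (Pou5f1) promoter marked germ cells with EGFP. Per the labels' protocols, EGFP-positive cells were sorted as the germ fraction and the EGFP-negative remainder as the somatic fraction, and ribosomal RNA was removed before library preparation. The somatic fraction is therefore a mixture of all gonadal cells without the reporter, and the sources used here do not say how many fetuses were pooled.

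Electrons from NADH enter the chain at complex I and those from succinate at complex II. Ubiquinone carries them to complex III and cytochrome c to complex IV, which reduces oxygen, and complex V uses the proton gradient to make ATP. Most subunits of complexes I, III, IV and V are nuclear-encoded and must be imported and assembled with a few made inside the mitochondrion, whereas all complex II subunits are nuclear-encoded. Several complex IV subunits exist as paralogues with different tissue distributions, such as the heart and muscle forms Cox6a2, Cox7a1 and Cox8b, the lung form Cox4i2 and the testis forms Cox6b2, Cox7b2 and Cox8c. At this age female germ cells have started meiosis, and male ones have stopped dividing.

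Levels are given as signal per 1000000 (SPM), the deposited gene signal divided by the scaled library total. Where 4 values are given they run male germ, female germ, male somatic, female somatic, and where 2 are given they run male, female. Depth was estimated at 17.5 to 24.9 M fragments (M stands for 1000000), and 3 fragments corresponded to 0.113 to 0.181 SPM. Of the 90 genes, 86 reached 1 SPM in at least 2 libraries and were tested, and Cox6a2, Cox8b, Cox8c and Ndufa4l2 did not. Germ cell markers matched the sort: Ddx4, the germ cell RNA helicase gene, stood at 527, 383, 3.81 and 0.467 SPM, and the 6 germ markers together took 0.405%, 0.214%, 0.00251% and 0.000666% of the signal. The 5 erythroid markers took 0.0311%, 0.00883%, 2.85% and 1.16% of the signal, and Hbb-y was at 0 in female germ cells. In bulk fractions such as these, fewer cells of a type and less RNA per cell cannot be told apart.

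The 90 genes together held 1.12%, 1.34%, 0.871% and 0.91% of the signal. The share was thus largest in female germ cells and smallest in male somatic cells. Among the 86 tested genes, 56 had their highest level in female germ cells, and 26 had their lowest in male germ cells. The heat map shows this as a female germ column that is mostly above and a male germ column that is often below each gene's mean. The counts of highest and lowest library are not given here for all tested genes. They describe the members only and are not set against a background.

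**Figure D1:**
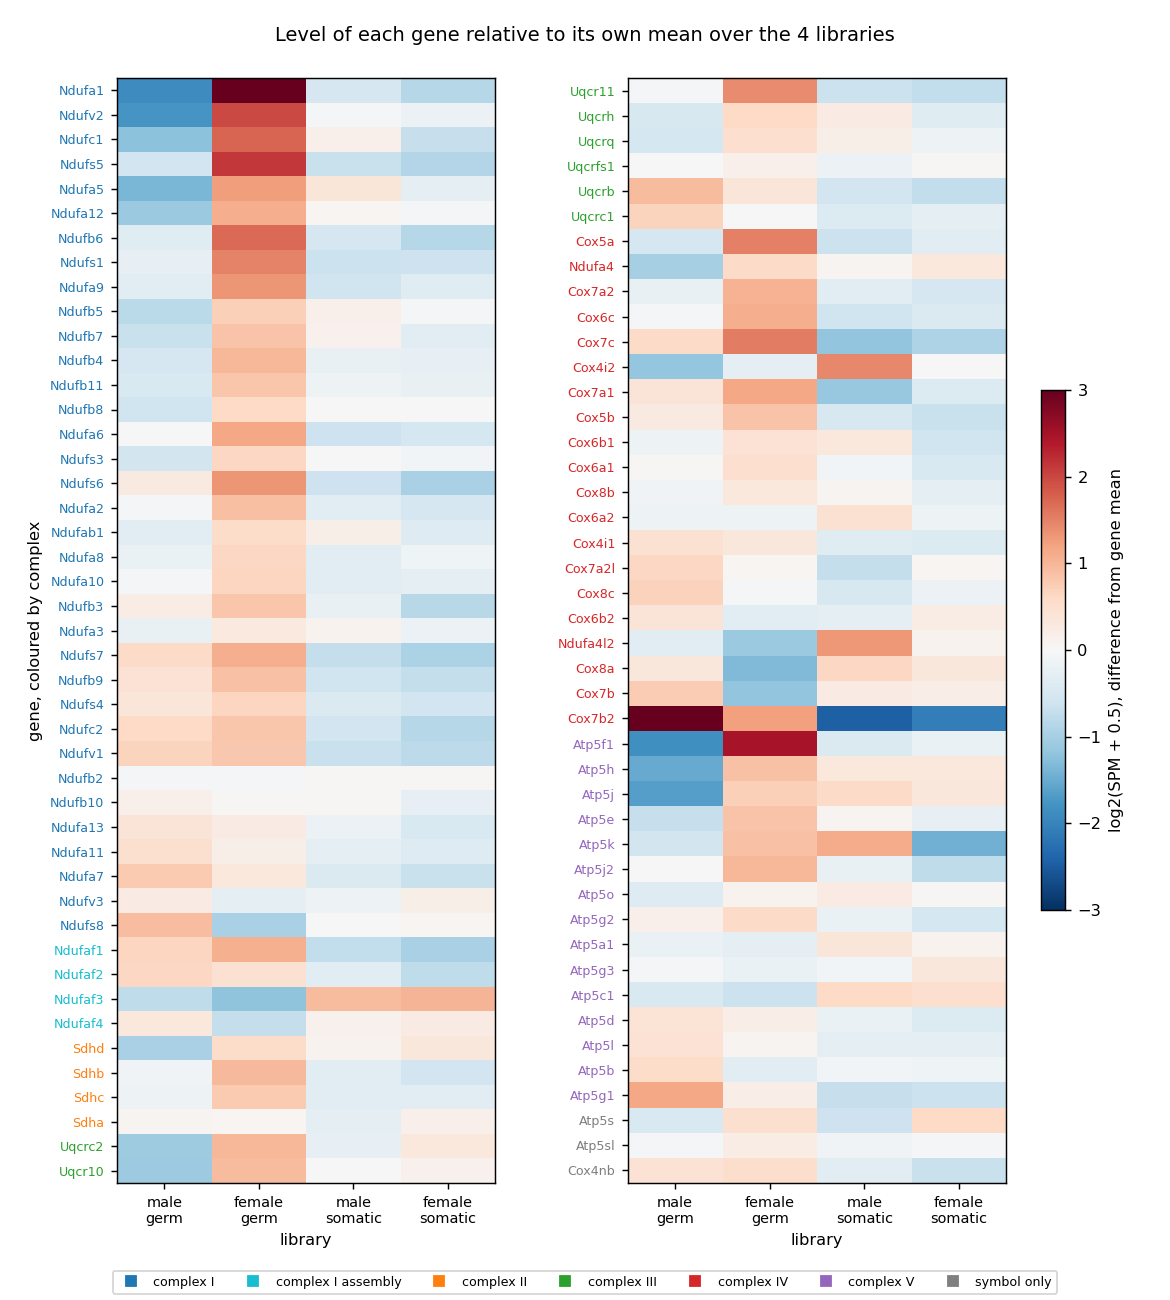
Level of 89 of the 90 genes in the 4 libraries (columns), as the difference of log2(SPM + 0.5) from that gene's mean over the libraries. Rows are ordered by complex (label colour) and then by the male to female ratio in germ cells. Red is above and blue below the gene's mean, and the color scale is clipped at 3. The female germ column is mostly above and the male germ column often below the mean.

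Male and female germ cells were compared to describe how the respiratory chain genes stood in the 2 germ lineages. Each sex has 1 library, so a replicate check and a p-value are both lacking for these ratios. A gene was counted when it differed at least 2-fold, among the 83 of the 90 genes that reached 5 SPM in the higher library. By this rule 34 genes (41.0%) were higher in female germ cells, against 26.3% of all 11766 genes at that level, and 5 genes (6.02%) were higher in male germ cells, against 26.8%. Another 44 genes differed by less than 2-fold. The median log2 ratio of male over female was -0.73 over the 86 tested genes and 0.035 over all 14148 tested genes. Over the 4 scalings used, the counts ranged from 25 to 34 female-higher and from 5 to 7 male-higher members. Those of all genes ranged from 2411 to 3094 female-higher and from 3148 to 3894 male-higher, of 11766 to 11940 genes. The member median ranged from -0.73 to -0.46, while the median of all genes went from 0.035 up to 0.29.

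The ratios spread widely among the members, with an interquartile range of 1.60 on the log2 scale against 1.98 for all genes. At a 4-fold limit, 14 genes were female-higher, against 10% of all genes, and 2 were male-higher, against 14.0%. Genes next to the 2-fold limit were Uqcrq and Ndufaf4 just inside, with male to female ratios of 0.478 and 2.10, and Atp5j2 and Atp5g1 just outside, at 0.502 and 1.97. Short genes leaned further: the 56 tested members of 1000 bases or less had a median log2 ratio of -0.92 and the 30 longer ones -0.22, and among all tested genes the 890 short ones had -0.33 and the longer ones 0.06. Whether gene length had a part in the female lean was not tested.

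**Figure D2:**
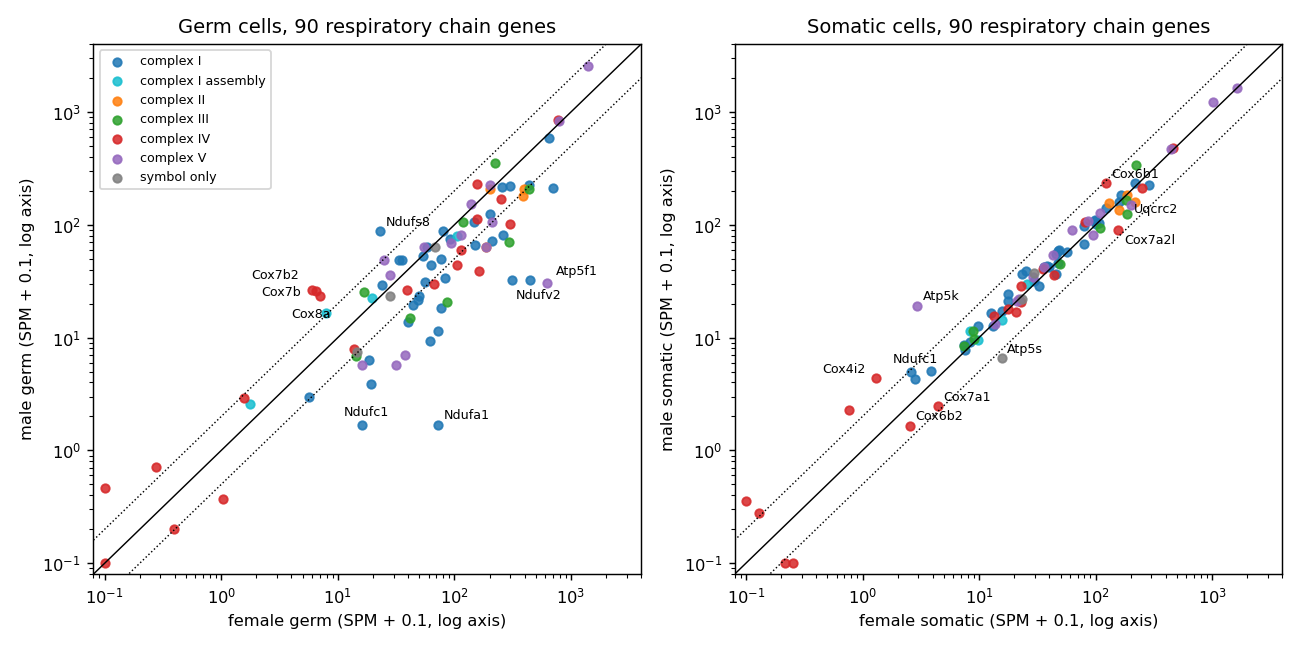
Level in male (vertical) against female (horizontal) cells for germ cells (left) and somatic cells (right), SPM plus 0.1 on log axes. Each point is 1 of the 90 genes, coloured by complex; the solid line is equality and the dotted lines mark 2-fold. In germ cells 34 genes lie beyond 2-fold toward female and 5 toward male among those at 5 SPM or more, whereas in somatic cells 1 gene does so in each direction.

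Complex I is the entry point for electrons from NADH. Of its 36 subunit genes, 18 (50.0%) were higher in female germ cells and 1 in male germ cells. Over all genes the shares were 26.3% and 26.8%. The median log2 ratio of the complex I genes was -1.004. Among the nuclear-encoded core subunits, which are conserved from bacteria, Ndufv2 stood at 32.5, 443, 109 and 98.6 SPM. Male germ cells were the lowest and female germ cells the highest of the 4 libraries, and the difference between the germ libraries was 13.6-fold (95% interval 12.7 to 14.6, counting error only).

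Ndufs1, the largest core subunit, stood at 210, 700, 159 and 160 SPM. Here female germ cells alone were high, at 3.34-fold over male germ cells. Ndufs3, another core subunit, was 2.28-fold higher in female germ cells. Ndufv1, which binds NADH next to Ndufv2, stood at 588, 648, 233 and 216 SPM. Its germ libraries differed by 1.10-fold and both lay above the somatic libraries. Ndufs8, an iron-sulphur subunit, went the other way at 87.7, 23.0, 45.3 and 47.1 SPM, being 3.82-fold higher in male than in female germ cells (3.43 to 4.27), with both somatic libraries in between. Ndufs7, a further core subunit, stood at 105, 148, 42.0 and 36.1 SPM and differed by less than 2-fold between the germ libraries.

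Of the 29 accessory subunits, which surround the core, 14 were female-higher and none was male-higher, against 26.3% and 26.8% of all genes. Their median log2 ratio was -0.95. Ndufa1, an X-linked accessory subunit of the membrane arm (chromosome X, 34727583 to 34731233, mm9), stood at 1.59, 72.4, 4.95 and 3.78 SPM. Female germ cells were the only library with a high level, 45.5-fold above male germ cells (33.8 to 64.0). Ndufc1 stood at 1.58, 15.9, 4.88 and 2.52 SPM, or 10.02-fold higher in female than in male germ cells (7.24 to 14.3). Ndufs5 was at 9.17, 61.4, 8.44 and 7.31 SPM and Ndufb6 at 18.01, 76.8, 16.4 and 12.7 SPM, and for both the male germ library was close to the somatic libraries.

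Ndufa5 was 6.40-fold and Ndufa12 5.09-fold higher in female germ cells, and in both the male germ library was the lowest of all. The other female-higher accessory genes were Ndufa6, Ndufa9, Ndufb4, Ndufb5, Ndufb7, Ndufb8, Ndufb11 and Ndufs6, at 2.11 to 3.19-fold. At the other end Ndufv3 stood at 48.6 and 33.4 SPM in the germ libraries, the largest male to female ratio among accessory subunits at 1.45. Of the 4 assembly factors, Ndufaf4 was male-higher by 2.10-fold (1.72 to 2.57), at 16.3 and 7.76 SPM. Ndufaf3 did not reach 5 SPM in either germ library, and Ndufaf1 and Ndufaf2 differed by less than 2-fold.

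Complex II, the succinate dehydrogenase shared with the TCA cycle, had 2 female-higher genes of 4, against 26.3% of all genes. The iron-sulphur subunit gene Sdhb stood at 181, 384, 156 and 131 SPM, 2.12-fold higher in female than in male germ cells. The membrane anchor gene Sdhd stood at 63.7, 186, 135 and 159 SPM, where male germ cells were the lowest, 2.92-fold below female germ cells. Sdha, the flavoprotein, stood at 206 and 201 SPM in the germ libraries, a ratio of 1.03.

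In complex III, which passes electrons from ubiquinol to cytochrome c, 5 of 8 genes were female-higher and none was male-higher. Over all genes the shares were 26.3% and 26.8%. Uqcrc2, a core protein, stood at 70.0, 292, 123 and 184 SPM, 4.17-fold higher in female than in male germ cells (3.95 to 4.40). Uqcr10, a small subunit, stood at 20.8, 86.8, 44.8 and 49.1 SPM, a 4.18-fold difference. In both genes the male germ library was the lowest and the female germ library the highest. Uqcr11, Uqcrh and Uqcrq were 2.80, 2.11 and 2.09-fold higher in female germ cells. Uqcrc1, the partner core protein of Uqcrc2, had the opposite order at 349 and 223 SPM in the germ libraries, under the 2-fold limit, and the Rieske protein gene Uqcrfs1 stood at 105 and 119 SPM.

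Complex IV, cytochrome c oxidase, had members on both sides: 4 genes were female-higher and 3 were male-higher of the 14 at 5 SPM. These shares, 28.6% and 21.4%, were near the 26.3% and 26.8% of all genes. Cox5a stood at 38.8, 162, 36.1 and 44.1 SPM, so that female germ cells alone were high, 4.18-fold over male germ cells (3.89 to 4.50). Ndufa4, Cox7a2 and Cox6c were 2.98, 2.41 and 2.23-fold higher in female germ cells. Cox8a stood at 23.3, 6.99, 28.4 and 23.0 SPM, which made female germ cells the low library, 3.33-fold below male germ cells (2.73 to 4.09). Cox4i1, a subunit needed for assembly of the complex, stood at 840 and 779 SPM in the germ libraries, a ratio of 1.08.

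In complex V, the ATP synthase, 5 of 15 genes (33.3%) were female-higher, against 26.3% of all genes. None was male-higher, against 26.8%. In the stalk that holds the catalytic head still, Atp5f1 (RefSeq Atp5pb) stood at 30.6, 620, 81.6 and 95.5 SPM, Atp5h at 5.56, 31.4, 21.1 and 21.2 SPM, and Atp5j at 6.90, 37.4, 34.2 and 28.9 SPM. All 3 were lowest in male germ cells and highest in female germ cells, with differences of 20.2-fold (18.8 to 21.8), 5.64-fold and 5.43-fold. The remaining stalk gene Atp5o stood at 81.4 and 114 SPM in the germ libraries, a difference of 1.40-fold.

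In the germ libraries the catalytic head gene Atp5a1 stood at 823 and 793 SPM, and its partner Atp5b at 2554 and 1393 SPM, 1.83-fold higher in male cells. Atp5c1 and Atp5d, which form the rotating central stalk with Atp5e, had ratios of 1.13 and 1.16, while Atp5e was female-higher by 2.97-fold. Atp5k, a small membrane subunit, was 2.85-fold higher in female germ cells, at 5.62 and 16.0 SPM. In complexes II to V, as in complex I, some subunits of a complex thus differed beyond 2-fold between the germ libraries while others of the same complex were within 1.2-fold.

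Reads of a few of these genes may be shared. The counting program's use of strand is not stated in any source used here, and several members overlap a gene on the opposite strand. Atp5f1 overlaps Wdr77, which stood at 74.5 and 80.8 SPM in the germ libraries, Atp5j overlaps Gabpa at 69.1 and 171 SPM, Ndufb11 overlaps Rbm10 at 44.5 and 33.1 SPM, and Uqcrc2 overlaps Pdzd9 at 0.338 and 0.848 SPM. A near-identical pseudogene transcript (at least 97% identity over at least 100 bases) exists for 16 members, among them 7 of the 34 female-higher genes, including Atp5f1, Ndufs5 and Atp5h, and none of the 5 male-higher genes. Without these 16 members, 27 genes were female-higher and 5 were male-higher of 67.

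The 3 X-linked members did not move in 1 direction between the germ libraries. Ndufa1, given above, and Ndufb11, an accessory subunit at 33.6, 82.8, 42.1 and 39.7 SPM, were female-higher, the latter by 2.46-fold. Cox7b (chromosome X, 103211038 to 103217789, mm9) stood at 25.8, 6.33, 17.9 and 17.5 SPM. It was male-higher by 4.08-fold in germ cells (3.32 to 5.05), with female germ cells the lowest library.

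Within the tissue-type paralogue pairs, Cox7b2, the testis form of subunit VIIb (chromosome 5, 71834061 to 71939444, mm9), set the germ libraries apart from the somatic ones. It stood at 26.3, 5.92, 0 and 0.156 SPM, the last from an estimated 4 fragments. Both germ libraries lay above both somatic libraries. The level in male germ cells was at least 146-fold higher than in male somatic cells, taken against a floor of 3 fragments in that library, and in female germ cells it was 38.1-fold higher than in female somatic cells (14.0 to 139). Per length, Cox7b2 made up 65.2% of the pair with Cox7b in the male germ library (exact 95% interval 62.7 to 67.6) and 63.3% in female germ cells (56.4 to 69.5), against 0% (up to 2.25) in male and 1.61% (0.452 to 4.14) in female somatic cells. Cox7b2 and Cox7b were both higher in male than in female germ cells, by 4.45-fold (3.60 to 5.55) and 4.08-fold, so their shares overlapped within counting error.

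The other testis forms were low in every library. Cox6b2, found in sperm, stood at 2.79, 1.47, 1.56 and 2.43 SPM and made up at most 1.64% of its pair with Cox6b1 in any library. Cox8c stood at 0.613, 0.177, 0 and 0.117 SPM, at most 2.92% of the pair with Cox8a, and it was estimated from 16, 3, 0 and 3 fragments. The 7 spermatid markers summed to 114, 19.6, 1.67 and 0.0195 SPM, almost all of it from Ldhc, with 110.5 and 18.4 SPM in the germ libraries, while Prm2 was at 0 in every library and Tnp1 and Pgk2 were at 0 in all but the male germ library.

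Cox7a1, the heart and muscle form of subunit VIIa, stood at 7.84, 13.7, 2.37 and 4.31 SPM. It made up 26.8%, 21.0%, 10.7% and 19.9% of the pair with Cox7a2 per length. Both germ libraries were above both somatic libraries in level and in share, and the intervals of the share overlapped between the female germ library (18.7 to 23.4) and the female somatic library (16.8 to 23.3). The other muscle forms were near the floor: Cox6a2 at 0, 0, 0.256 and 0 SPM and Cox8b at 0.101, 0.296, 0.177 and 0.0292 SPM. The 7 striated muscle markers summed to 140, 2.06, 11.4 and 6.40 SPM. In male germ cells they came from Myh7 at 99.97 and Myh6 at 38.4 SPM, and Acta1 was at 0 in both somatic libraries and Ckm, Myl2 and Tnnt2 at 0 in female germ cells. The part of such cells in the level of Cox7a1 was not tested.

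Cox4i2, the form abundant in lung, stood at 0.274, 0.937, 4.24 and 1.21 SPM, and Ndufa4l2, a hypoxia-induced paralogue of Ndufa4, at 0.366, 0, 2.17 and 0.662 SPM. Both were highest in male somatic cells, yet made up at most 0.824% and 0.518% of their pairs. The 7 smooth muscle and pericyte markers summed to 45.6, 11.6, 1852 and 427 SPM, also highest in male somatic cells. The stroma, erythroid, fetal Leydig, Sertoli and leukocyte marker sums were highest there too. The endothelial and pregranulosa sums were highest in female somatic cells. The part of any of these cell types in the levels of Cox4i2 and Ndufa4l2 was not tested. Among the 3 genes for the same c-ring subunit of ATP synthase, Atp5g1 made up 14.5%, 7.61%, 4.75% and 4.17% of the trio per length, while Atp5g3 held the largest part in every library, at 54.3% to 78.2%.

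**Figure D3:**
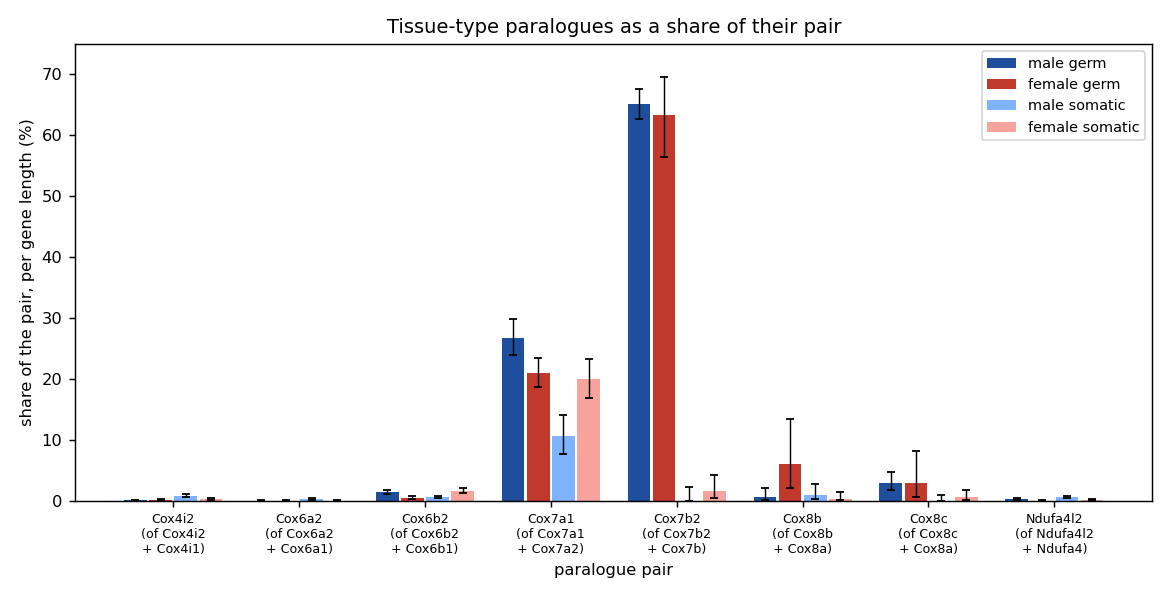
Share of each tissue-type paralogue in its pair, in percent of the summed SPM per kilobase, for 8 pairs (horizontal axis) in the 4 libraries (bars). Error bars are exact 95% intervals from estimated fragments and cover counting error only. Cox7b2 reaches 65.2% and 63.3% in male and female germ cells and at most 1.61% in somatic cells, and no other paralogue exceeds 26.8%.

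Sequence upstream of the transcription start is printed for a chosen few of the members. These are the pair Cox7b2 and Cox7b, the male-higher Ndufs8 and the female-higher Ndufv2, Ndufs5 and Ndufb6. The choice is not a ranking by size. Ndufa1, Atp5f1 and Ndufc1, with larger germ differences than Ndufs5 and Ndufb6, also had windows and are not printed. RefSeq windows (GRCm38.p6, from 250 bases before the start to 50 after) were available here for 74 of the 90 genes. Each line gives the bases before the start, on the gene's strand, 5′ to 3′, without bases of annotated exons, and capitals mark a match on either strand to the CCAAT box, to the TATA box letters TATAAA or to the ETS motif CCGGAAG. The Ndufv2 and Ndufs5 stretches hold no capitals. The positions are chr5:71548206-71548455 (minus strand), chrX:106015450-106015699 (plus strand), chr19:3912775-3913024 (minus), chr17:66101560-66101809 (minus), chr4:123718203-123718436 (minus) and chr4:40279422-40279671 (minus).
Cox7b2: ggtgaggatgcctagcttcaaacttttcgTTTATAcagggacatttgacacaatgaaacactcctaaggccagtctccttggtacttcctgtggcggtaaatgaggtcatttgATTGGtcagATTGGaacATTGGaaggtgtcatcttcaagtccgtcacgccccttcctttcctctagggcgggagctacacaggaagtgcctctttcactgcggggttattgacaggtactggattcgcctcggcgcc
Cox7b: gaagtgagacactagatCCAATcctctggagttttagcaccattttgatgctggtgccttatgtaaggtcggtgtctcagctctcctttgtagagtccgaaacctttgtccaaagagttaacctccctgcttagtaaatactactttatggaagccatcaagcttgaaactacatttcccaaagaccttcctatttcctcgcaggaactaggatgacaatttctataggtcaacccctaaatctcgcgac
Ndufs8: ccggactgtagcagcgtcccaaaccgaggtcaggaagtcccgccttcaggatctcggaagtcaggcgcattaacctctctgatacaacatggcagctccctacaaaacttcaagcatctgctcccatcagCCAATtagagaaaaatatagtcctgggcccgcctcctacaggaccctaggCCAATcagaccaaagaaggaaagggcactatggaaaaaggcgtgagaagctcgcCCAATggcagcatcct
Ndufv2: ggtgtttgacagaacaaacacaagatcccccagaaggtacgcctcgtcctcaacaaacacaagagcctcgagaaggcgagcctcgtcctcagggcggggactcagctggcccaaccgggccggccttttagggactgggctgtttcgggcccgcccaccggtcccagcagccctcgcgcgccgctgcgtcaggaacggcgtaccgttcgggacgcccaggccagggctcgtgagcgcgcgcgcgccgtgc
Ndufs5: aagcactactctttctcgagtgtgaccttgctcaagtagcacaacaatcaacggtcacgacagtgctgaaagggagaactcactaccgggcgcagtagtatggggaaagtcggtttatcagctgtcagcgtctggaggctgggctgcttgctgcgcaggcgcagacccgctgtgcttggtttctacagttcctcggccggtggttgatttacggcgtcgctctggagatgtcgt
Ndufb6: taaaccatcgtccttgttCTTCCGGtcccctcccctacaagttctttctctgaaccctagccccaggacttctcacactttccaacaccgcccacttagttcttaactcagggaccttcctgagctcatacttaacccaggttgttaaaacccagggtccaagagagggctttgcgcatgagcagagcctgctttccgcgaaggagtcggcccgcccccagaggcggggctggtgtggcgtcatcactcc

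The Cox7b2 stretch held 3 CCAAT matches and a TATAAA match, all on the opposite strand. The TATAAA match lay near the 5′ end of the stretch, away from the start. The Cox7b stretch held 1 CCAAT match. Ndufs8 held 3 CCAAT matches and Ndufb6 an ETS match, while none of the 3 motifs was found in the Ndufv2 or Ndufs5 stretches. In the full 300-base windows, ETS letters occurred in 21.6% of the 74 member windows against 9.12% of 27025 RefSeq gene windows. For CCAAT the shares were 45.9% and 37.9%, and for TATAAA 9.46% and 14.2%. The 27025 windows were not limited to the 20299 genes listed, so this background is a wider set than all genes elsewhere in the text. Member windows were also richer in CpG, with a median of 19.5 against 7 per window. Among windows of female-higher genes, 10 of 29 held ETS letters, against 4 of 37 for genes under 2-fold and 2 of 5 for male-higher genes. CCAAT occurred in 9 of 29, 19 of 37 and 4 of 5 windows of these groups. These matches are descriptions of the letters and were not tested against the levels.

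In somatic cells the sexes lay close together. Of the 79 members at 5 SPM or more in the higher library, 1 was male-higher, against 9.61% of 11835 genes, and 1 was female-higher, against 8.26%. The interquartile range of log2 ratios was 0.40 for the 86 tested members and 0.73 for all tested genes, with medians of 0.11 and 0.0068, and the member median was -0.015 under library totals. Atp5k stood at 19.1 and 2.84 SPM in the somatic libraries, a 6.73-fold difference (5.20 to 8.86), which was opposite in direction to its germ ratio. Atp5s, one of the symbol-only matches, was 2.42-fold higher in female somatic cells (1.95 to 3.02), at 6.44 and 15.6 SPM. The 5 pregranulosa markers summed to 102 and 999 SPM in the somatic libraries, with Irx3 at 0 in the male one. The 6 Sertoli markers summed to 866 and 308 SPM there, but their medians were 140 and 4.65 SPM, and 5 were male-higher. The part of these cell types in the 2 calls was not tested.

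The sex difference common to germ and somatic cells was estimated in limma after allowing for cell type, with 1 residual degree of freedom. None of the 86 members passed an adjusted p of 0.05, against 0.134% of all 14148 genes, which were 19 male-higher genes and 0 female-higher ones, with 915 at an unadjusted p under 0.05. The median log2 difference of the members was -0.19, and it was 0.12 with either germ library left out, since the somatic libraries alone then give the difference.

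Germ cells were compared with somatic cells in limma taking each sex as 1 sample per cell type, with 2 residual degrees of freedom. Because the labels name no separate animals behind the libraries, the p-values cover the spread between these libraries and no more. The members leaned toward germ cells: 62 of 86 had a positive log2 difference, with a median of 0.50 against -0.11 over all genes. Both germ libraries lay above both somatic libraries for 38 members (44.2%), against 28.5% of all genes, and below them for 5 (5.81%), against 33.8%. For the other 43 members the cell types overlapped. The median was positive in each complex, from 0.13 in complex III to 0.72 in complex IV.

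Of the 86 members, 1 was called higher in germ cells, against 2.5% of all genes, and none was called lower, against 5.56%. That gene was Cox7b2, with a log2(SPM + 0.5) difference of 4.52 ± 0.90 (SE, n = 2 libraries per cell type) and a limma adjusted p of 0.0484. Cox7b2 reached the level filter only through the 2 germ libraries, where it was high, so a difference was built into its being tested and the call is given as a description. The size depends on the added 0.5, since the somatic levels were near 0. The call was lost under library totals (limma adjusted p = 0.0513), upper-quartile factors (0.0591), a pseudocount of 1 (0.0576) and no level filter (0.0920), whereas its direction held in each. Without the male somatic library the log2 difference was 4.32, and without the female somatic library 4.71. These fits leave 1 somatic library, so their calls are not given. With a germ library left out, Cox7b2 fell under the filter and was not tested.

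The next largest differences were those of Cox7c, a small complex IV subunit, at 2.11 ± 0.54, Ndufaf1 at 1.70 ± 0.44 and Ndufs7 at 1.66 ± 0.43, with limma adjusted p of 0.0725, 0.0750 and 0.0730. Cox7c stood at 59.1, 115, 16.9 and 20.5 SPM, so both germ libraries lay above both somatic ones. At the other end were Ndufaf3, an assembly factor, at -1.97 ± 0.66, with 2.50, 1.68, 9.34 and 9.68 SPM, Cox4i2 at -1.43 and Atp5c1, a central stalk gene of ATP synthase, at -1.10 ± 0.35. Atp5c1 stood at 226, 201, 470 and 446 SPM, with both germ libraries below both somatic ones. In complex II the range was from -0.43 for Sdhd to 0.88 for Sdhb, and in complex III from -0.14 for Uqcr10 to 1.37 for Uqcr11.

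The size of the germ to somatic difference depended on which germ library was used. With 1 germ library left out, the germ group holds only 1 library. Calls from such a fit measure no spread among germ cells and are not given. The member median went from 0.87 without male germ cells to 0.16 without female germ cells. With sex as a term, Cox7b2 and Cox7c passed.

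Levels per length were unequal among the subunits of a complex. In male germ cells, the subunit genes of complex I ranged from 3.21 SPM per kilobase for Ndufa1 to 424 for Ndufa2, with a median of 45.3. Complex II genes had the smallest range, from 49.4 for Sdhd to 174 for Sdhc, or 3.52-fold. Complex II also has the fewest genes, 4, and a range can only widen as genes are added. Complex V genes ranged from 9.05 for Atp5j to 1352 for Atp5b. Gene lengths are those listed in the files, so these levels also carry any error in the listed length.

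**Figure D4:**
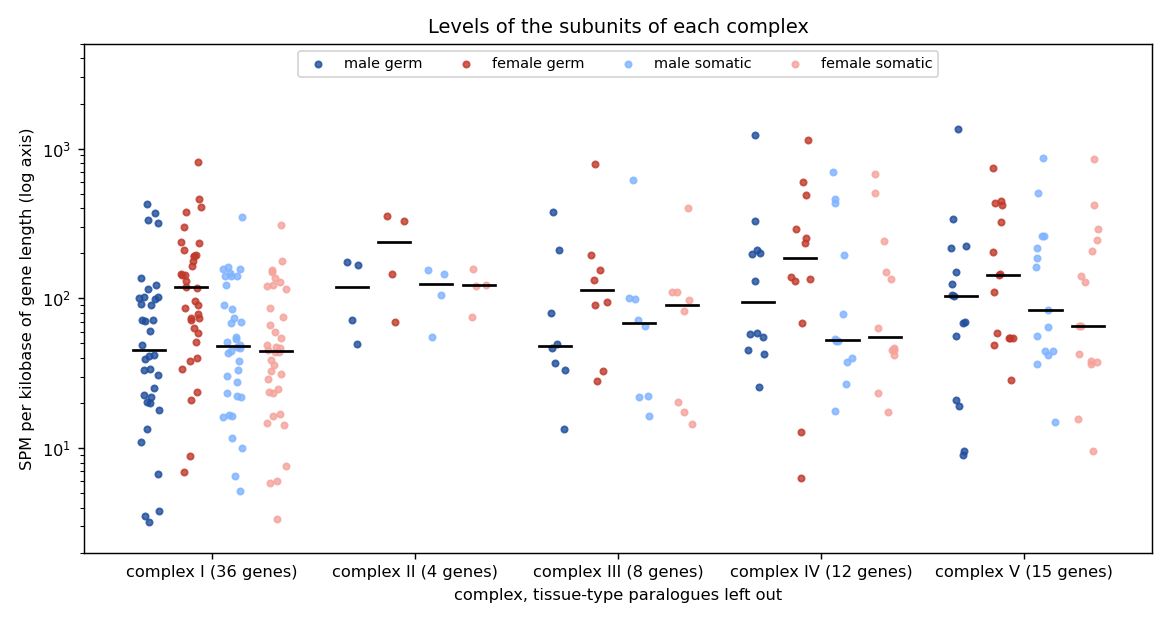
Level of each subunit gene in SPM per kilobase of listed gene length (log axis), by complex (horizontal axis) and library (color), with tissue-type paralogues left out. Black bars are medians. Complex II has the smallest range, 49.4 to 174 in male germ cells, and the fewest genes, 4.

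Other genes of the pathway, from lists outside the symbol rule, were set beside the members. Among electron carriers and dehydrogenases 1 of 11 tested genes was called higher in germ cells and none lower: Cyct, the testis form of cytochrome c, stood at 27.7, 20.8, 0.561 and 0.0195 SPM, a log2 difference of 5.05 ± 0.73 (limma adjusted p = 0.0352). Like Cox7b2, it entered the test only through the germ libraries. The common form Cycs stood at 52.9, 26.7, 22.2 and 14.0 SPM and did not pass. In the TCA cycle list 1 of 18 passed as higher and 1 as lower. Pdha2, the autosomal testis form of the X-linked pyruvate dehydrogenase subunit gene Pdha1, stood at 13.4, 23.3, 0.266 and 0 SPM (4.88 ± 0.70, limma adjusted p = 0.0352), and it too entered the test only through the germ libraries.

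Idh2, which encodes the mitochondrial NADP-dependent isocitrate dehydrogenase, fell by 4.05 ± 0.44 (SE) on the log2 scale in germ cells, from 618 and 461 SPM in the somatic to 24.9 and 40.4 in the germ libraries (limma adjusted p = 0.0328). Vdac1, an outer membrane channel gene, fell by 3.81 ± 0.38 (limma adjusted p = 0.0328), the only one of 10 outer membrane and matrix markers to pass. Nr2f2 was the only one of 10 regulators to pass, as lower. It is also 1 of the 6 stroma markers, of which 5 passed as lower in germ cells, against 5.56% of all genes. No gene passed in the lists of ubiquinone synthesis (12 tested), assembly factors of complexes I to IV outside the rule, complex V partners, mitochondrial transcription and replication (8) or mitochondrial ribosomal proteins (74).

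The same lists were counted between the germ sexes, where 26.3% of all genes were female-higher and 26.8% male-higher. Of 5 complex I assembly genes outside the rule 3 were female-higher: Foxred1 at 24.6 and 279 SPM (11.4-fold), Ecsit at 15.5 and 139 SPM and Nubpl at 2.61 and 14.7 SPM. Of 12 complex IV assembly genes 7 were female-higher and none was male-higher, with the copper chaperone gene Cox17 at 8.86 and 39.8 SPM. Of 5 complex V partners 4 were female-higher, with the F1 assembly factor gene Atpaf2 at 12.4 and 143 SPM (11.6-fold). Of 70 mitochondrial ribosomal protein genes 17 were female-higher, a share near that of all genes, and 6 were male-higher, with a median log2 ratio of -0.42. In the ubiquinone synthesis list 4 of 12 genes were female-higher and 1 was male-higher, which was Coq10b at 33.3 and 4.33 SPM. Of 11 electron carriers and dehydrogenases 4 were female-higher and 3 male-higher. Among the latter were the sulphide oxidase gene Sqrdl at 5.93 and 0.542 SPM and the sulphite oxidase gene Suox at 36.6 and 8.42 SPM. In the TCA cycle list 5 of 18 genes were female-higher and 2 male-higher. Of 10 outer membrane and matrix markers 2 were female-higher and 3 male-higher, and of 8 regulators 2 were female-higher and 2 male-higher. Of 8 mitochondrial transcription and replication genes 2 were female-higher and 0 male-higher. The same numbers, 2 and 0, held for 5 assembly genes of complexes II and III outside the rule.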

How the data were processed

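RNA of 4 sorted fractions was measured, 1 library per group. CASAVA 1.9, TopHat 1.2.0, edgeR and build mm9 are named, without roles, in the submitters' processing notes. The counting program, annotation and strand use are not given in the sources used. Per the file headers, each file lists position, symbol, length in bases and a value called counts. The deposited values are treated as a scaled signal, because low values recur every 4.105 to 6.115 units and totals lie between 99.3 and 107.5 M (M is 1000000). Between 43.1% and 54.3% of low values lay on this spacing, against 15% to 23.3% by chance. The spacing was taken as 1 fragment, so fragment numbers, intervals and floors are estimates and cover counting error only.

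After removing 74 repeated rows, 20299 genes remained. Signal was divided by totals with trimmed-mean factors of 0.945 to 1.07. limma 3.58.1 (R 4.3.3, mean-variance trend, Benjamini-Hochberg, threshold 0.05) was run on log2(SPM + 0.5) for 14148 genes at 1 SPM or more in 2 libraries. It was checked on simulated data that held no sex difference, so the check does not cover the spread between the sexes here. Comparisons of 1 library with 1 used a size rule of 2-fold and 5 SPM with exact conditional binomial 95% intervals. Alternatives changed scaling, pseudocount, filter, size rule, covariate and libraries. Named were all paralogue pairs, X-linked genes, members past a threshold or size rule and the extremes per complex, and up to 3 genes per other list past the threshold or 4-fold. Members and lists were chosen with earlier results of these data known. Gene names, promoters and pseudogenes came from RefSeq and GENCODE tables on GRCm38. Values of 1 member and 1 marker gene are not reported here.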

Additional observations from a re-analysis of the deposited data

Results flagged for a closer look

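Atp5k, a small membrane subunit gene of ATP synthase, had opposite sex ratios in the 2 cell types. Its log2 ratio of male over female was -1.51 in germ cells and 2.75 in somatic cells, with 5.62 and 16.0 SPM in the male and female germ libraries and 19.1 and 2.84 SPM in the somatic ones. With 1 library per group, the difference between the cell types was not tested.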

How the results depend on the processing

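Each labelled group has 1 library, so there were no replicate numbers to pair. The libraries can be paired only by sex, which the fit with sex as a term does by comparing the cell types within each sex. The main fit left sex out, so differences between the sexes entered its spread. Germ against somatic, 354 genes passed as higher and 786 as lower, and none did without a level filter, while 1094 and 1955 did with sex as a term. Leaving out 1 library gave 139 to 1754 higher and 186 to 2508 lower genes, 0 to 25 higher and 0 to 3 lower members, and a member median from 0.16 to 0.87. The number of members passing as higher, 1 in the report, was 0 under library totals, upper-quartile factors, a pseudocount of 1 and no filter, and 2 with sex as a term. The median of all genes, -0.11, was 0.037 under upper-quartile factors and 0.073 without a filter. For the shared sex difference, 19 male-higher genes became 0 under library totals, upper-quartile factors or no cell type term, 7 under median-ratio factors, 95 (with 31 female-higher) with a pseudocount of 0.1, 9 without a filter and 34 (with 2 female-higher) at 5 SPM. The member median was -0.075 under upper-quartile factors and -0.70 to 0.12 with a library left out, and that of all genes 0.11, 0.029 and 0.083 under upper-quartile factors, median-ratio factors and no filter. In germ cells a 4-fold rule gave 14 female-higher and 2 male-higher members. In somatic cells it gave 0 female-higher members, a minimum of 20 SPM gave 0 in each direction, and a minimum of 1 SPM gave 3 male-higher. Their median was -0.015 under library totals, and that of all genes was -0.11 there and -0.021 under upper-quartile factors. The cause of these changes was not tested. Depth limits the paralogues near the floor, where 3 fragments are 0.113 to 0.181 SPM.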
